A study of Mus musculus with 4 samples.

Results

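Granulocyte-committed progenitors were studied here in bone marrow mononuclear cells of TLR9-/- and WT mice. These are early myeloid cells that make primary granule proteins in large amounts and carry more transcripts of granulocyte than of monocyte fate genes. The cells were chosen by their own transcript counts, counted as unique molecular identifiers (UMIs, 1 per captured transcript). A cell was taken when Mpo, Elane, Prtn3 and Ctsg together had at least 10 UMIs, when Cebpe plus Gfi1 exceeded Irf8 plus Csf1r, and when Camp plus Ngp made up under 1% of its UMIs. Of 39167 cells that passed the filters on gene number and mitochondrial UMIs, 968 met the rule (2.47%). The levels of these 10 genes therefore describe how the cells were selected and are given with no test.

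The study profiled the marrow of 2 TLR9-/- mice and 2 WT mice, labelled C57BL/6 (C57BL6/J in the study's methods), with 1 10x Genomics library per mouse. The methods describe 2 experiments with 1 mouse of each genotype in each, and the labels do not say which libraries were made together. TLR9-/- mice carry a disrupted Tlr9 gene in every cell, and the genotypes were bred in separate cages, so that genotype and cage cannot be told apart. Their age is not given in the labels. Per the labels, femurs and tibias were flushed and the mononuclear cells were collected from a Ficoll gradient, which leaves out most mature granulocytes. The methods also describe, for cultured marrow cells, a night in medium with M-CSF before the gradient; the labels of these libraries name no such step. Tlr9 transcripts of all filtered cells numbered 41 and 48 UMIs for TLR9-/- mice 1 and 2, and 120 and 97 UMIs for WT mice 1 and 2, or 0.817, 0.750, 3.84 and 2.34 when scaled to 1000000 UMIs of each library. They were thus lower but not at 0 in TLR9-/- libraries, and where the disrupted part lies relative to the 5′ tags is not given in the sources used here. In the granulocyte-committed progenitors it had 1, 0, 1 and 0 UMIs in the same order, so that the label could not be checked within these cells. Values of the 4 libraries are given in this order throughout, and replicate error is the SD of 2 libraries per genotype.

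Granulocyte-committed progenitors correspond to the stage at which a granulocyte-monocyte progenitor has entered the neutrophil path and fills its first, azurophil granules. Myeloperoxidase (Mpo), neutrophil elastase (Elane), proteinase 3 (Prtn3) and cathepsin G (Ctsg) are the main cargo of these granules and are made mostly at the promyelocyte stage. The repressor Gfi1 and the activator Cebpe (C/EBP epsilon) drive the granulocyte path, whereas Irf8 and the M-CSF receptor Csf1r mark the monocyte path. Secondary granule proteins such as Camp, Ngp and Ltf follow at the myelocyte stage.

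The genes for the 4 enzymes lie in 3 places of the mouse genome, with Elane and Prtn3 side by side on chromosome 10. A stretch of 43 bases from each promoter is shown, because these 4 transcripts define the cells. The capitals mark the letters AGGAAGT, which match the core recognised by ETS factors such as PU.1 (Spi1). The sequences are RefSeq's on build GRCm38.p6, 5′ to 3′ on the strand of the gene, and hold no exon annotated by GENCODE. The window of Prtn3 precedes its RefSeq start but lies inside the longer GENCODE gene, from 79874476 to 79883174.
Mpo, chr11:87793537-87793579, plus strand: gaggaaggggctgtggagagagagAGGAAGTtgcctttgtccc
Elane, chr10:79886204-79886246, plus strand: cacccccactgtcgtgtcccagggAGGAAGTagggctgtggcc
Prtn3, chr10:79879549-79879591, plus strand: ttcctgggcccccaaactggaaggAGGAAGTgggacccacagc
Ctsg, chr14:56102762-56102804, minus strand: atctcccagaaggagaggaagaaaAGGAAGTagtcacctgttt
AGGAAGT was searched on both strands in the 250 bases before each RefSeq start site, after these 4 sequences had been looked at. It lay 223, 84, 94 and 206 bases before the start sites of Mpo, Elane, Prtn3 and Ctsg, and 7.69% of all 32851 promoter windows held it. The C/EBP letters TTGCNNAA were in none of these 4 windows and in 9.56% of all windows. A match of letters does not show a bound site.

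The label was checked against 5 marker genes. Elane (ENSMUSG00000020125, chromosome 10 of GRCm38 from 79886247 to 79888215) was the most abundant transcript, at 22394, 25692, 23285 and 25079 CPM (UMIs of a gene scaled to a total of 1000000 UMIs over these cells of a library). Mpo (ENSMUSG00000009350, chromosome 11 from 87793581 to 87804413) stood at 8170, 12230, 7495 and 8992 CPM. Cebpe (ENSMUSG00000052435, chromosome 14 from 54710360 to 54712174) stood at 202, 215, 187 and 198 CPM, and Gfi1 (ENSMUSG00000029275, chromosome 5 from 107716657 to 107726036) at 74.4, 73.0, 93.5 and 90.7 CPM. These 4 markers are genes of the selection. Fcnb, which the selection did not use, encodes ficolin B, a lectin of granulocyte precursors (ENSMUSG00000026835, chromosome 2 from 28076378 to 28084885). It had 133, 190, 184 and 325 CPM, against a mean of 40.1 CPM in monocyte-committed progenitors. Of the 5 markers, Fcnb alone thus bears on the label independently of the selection, and it was present in every library. It was found in 45.9%, 53.6%, 50.4% and 58.4% of the members. Among cells with the granule UMIs but Camp plus Ngp at 1% or more, it was found in 53.1%, 97.0%, 69.2% and 95.9%. Fcnb thus does not set the members apart from those cells. In the early tertile of a maturation score that holds Fcnb, defined below, its mean was 8.19 CPM, below that of monocyte-committed progenitors. Fcnb therefore does not bear out the label for that part of the members.

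Besides the selected enzymes, S100a8 was the most abundant transcript with genes named Rpl, Rps or mt- left out, at a mean of 8658 CPM, followed by Ppia (cyclophilin A) at 6889 CPM and Fau, which encodes a ribosomal protein under another name, at 6452 CPM. S100a9, which with S100a8 forms calprotectin, had 5861 CPM. Srgn, the proteoglycan core that packs granule proteases, had a mean of 4355 CPM, and Plac8 had 3318 CPM. Ms4a3, a membrane protein of granulocyte-monocyte progenitors and their offspring, had 1850, 1955, 1721 and 1711 CPM. As a 5′ UMI counts a transcript once whatever its length, levels of different genes can be set side by side. Gm42418, which overlaps a ribosomal RNA locus, went with the library number and not with the genotype, at 1559, 7471, 2410 and 10159 CPM.

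The cells were deeply sampled. Their median UMI count was 14890, 25063, 13030 and 17688 in the 4 libraries, against 2545, 3618, 1759 and 2287 over all filtered cells, and their summed UMIs were 4827676, 8396361, 1669132 and 3097218. Few cells lay near the lower limit of granule UMIs, with 10 cells at 10 to 14 UMIs and 21 otherwise eligible cells at 5 to 9. The limit between the fates was more crowded. In 177 members the granulocyte genes led by 1 UMI, and 568 further cells had equal counts on both sides, of which 505 had 0 on both. Members with Camp plus Ngp between 0.5% and 1% numbered 47, and 73 otherwise eligible cells lay between 1% and 2%. No cell barcode of a member was shared between libraries.

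Monocyte-committed progenitors, taken by the mirror rule with Irf8 plus Csf1r above Cebpe plus Gfi1, were the comparison class and numbered 2626. Whether other neighbours were closer was not measured, such as the 928 cells with granule UMIs and Camp plus Ngp at 1% or more. Since the rule set these classes apart, their differences are described without a test. Among 2319 genes with at least 50 CPM in every library of either class, the rule's genes left out, 735 were higher in granulocyte-committed progenitors in all 4 libraries and 984 were lower. At least a 2-fold ratio of the means was reached by 74 of the higher and 167 of the lower genes.

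The 10 highest ratios included granule proteins and genes of other kinds. Wfdc21, a small protease-inhibitor-like protein, had a mean of 746 against 46.9 CPM, a 15.9-fold ratio. Cd63, a tetraspanin of azurophil granule membranes, had 969 against 79.1 CPM, and Pglyrp1, a peptidoglycan-binding granule protein, had 720 against 66.2 CPM. S100a9 was 9.24-fold higher and S100a8 8.36-fold higher. Prss57, a serine protease of azurophil granules, was 7.04-fold higher, at 420 against 59.7 CPM. Vcam1, Rgcc, Vat1 and G0s2 completed the 10 highest, with ratios between 6.56 and 9.36.

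The 10 lowest ratios were between 18.7-fold and 79.3-fold lower. Klf4, a factor of monocyte differentiation, had a mean of 1.23 CPM in granulocyte-committed and 97.1 CPM in monocyte-committed progenitors, a 79.3-fold ratio. Lgals3 (galectin-3) was 26.0-fold and Ms4a6c 20.3-fold lower in the granulocyte-committed cells. Fn1 (fibronectin) was 21.3-fold and Ly86, the partner of the receptor Cd180, 21.6-fold lower. S100a4, Tpm4, Ahnak, Prdx4 and Pld4 completed the 10 lowest. Csf3r, the G-CSF receptor, had 57.8, 65.3, 58.1 and 76.2 CPM against 32.0, 36.6, 33.4 and 37.3 CPM, higher in all 4 libraries. Spi1, with 282, 315, 261 and 226 CPM against 350, 348, 298 and 244 CPM, differed less between the classes.

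**Figure D1:**
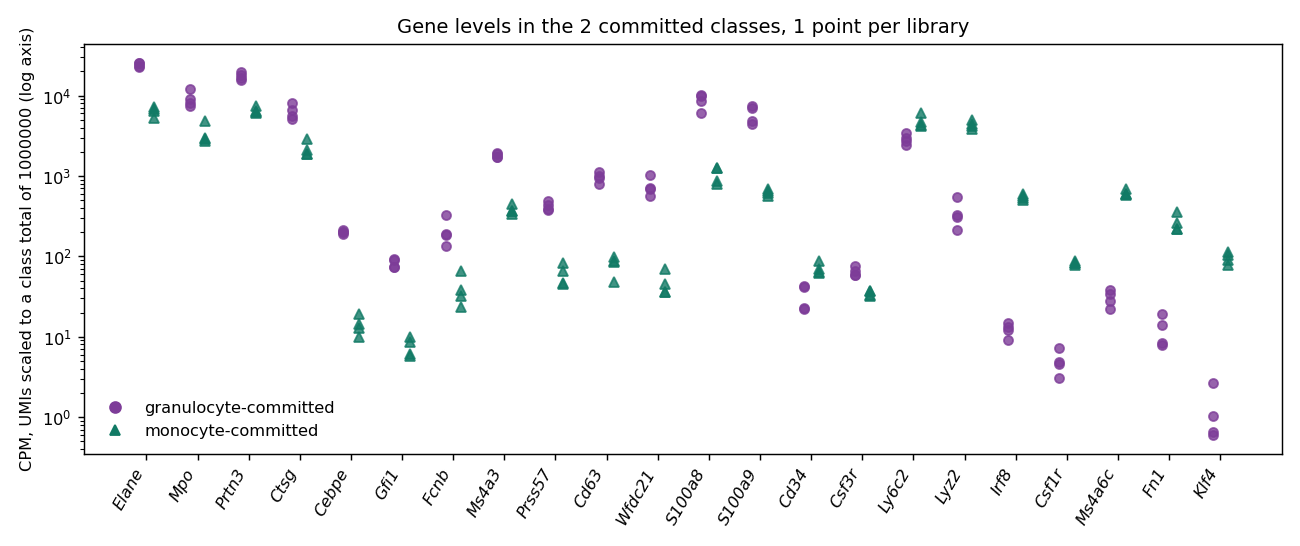
Levels of 22 genes in granulocyte-committed (circles) and monocyte-committed (triangles) progenitors, in CPM on a log axis, with 1 point per library. Elane, Ms4a3, Cd63 and S100a9 lie higher in the granulocyte-committed cells of all 4 libraries, Irf8, Ms4a6c, Fn1 and Klf4 lower; the first 6 genes, Irf8 and Csf1r belong to the selection.

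The first comparison asked whether marrow without TLR9 held more of these cells. Of all cells, 3.03% and 3.75% were granulocyte-committed progenitors in TLR9-/- marrow, against 1.22% and 2.00% in WT marrow, which are 327 and 334 against 129 and 178 cells. Both TLR9-/- libraries lay above both WT libraries. The means were 3.39% ± 0.504 and 1.61% ± 0.552 (SD, n = 2), a 2.10-fold ratio and a difference of 1.78 percentage points, with 1.81 and 1.74 points between the libraries numbered 1 and those numbered 2. An exact two-sided permutation test gave p = 0.33, the smallest value that 2 libraries against 2 allow. TLR9-/- cells had more UMIs, and depth enters both the minimum of 10 granule UMIs and the lead of Cebpe plus Gfi1. Minima of 5 and 20 granule UMIs gave log2 ratios of the share of 1.04 and 1.09, against 1.07. On Cebpe plus Gfi1 the members had a median of only 4, 7, 3 and 4 UMIs. Cells with at least 2000 UMIs, which were 6365 of 10781, 6312 of 8918, 4675 of 10573 and 4827 of 8895 cells, were therefore reduced at random to 2000 UMIs and the shallower cells left out. Among them the shares were 2.53%, 2.72%, 1.22% and 1.80%, again with no overlap of the genotypes, but the cells left out were a larger part of each WT library than of either TLR9-/- library. With no limit on Camp plus Ngp they were 4.36%, 5.99%, 1.95% and 4.50%, and WT library 2 then lay above TLR9-/- library 1.

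Monocyte-committed progenitors made up 10.2%, 9.53%, 3.55% and 3.42% of the cells, a 2.83-fold ratio of the means. Of the committed progenitors of both kinds, 23.0%, 28.2%, 25.6% and 36.9% were therefore on the granulocyte side. The ranges of the genotypes overlapped, with means of 25.6% ± 3.71 in TLR9-/- and 31.3% ± 8.01 in WT libraries (SD, n = 2), and the exact permutation test gave p = 0.67. Their difference, −5.68 percentage points, was smaller than the gap between the WT libraries. Between the libraries numbered 1 it was −2.63 points, and between those numbered 2 it was −8.72 points.

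**Figure D2:**
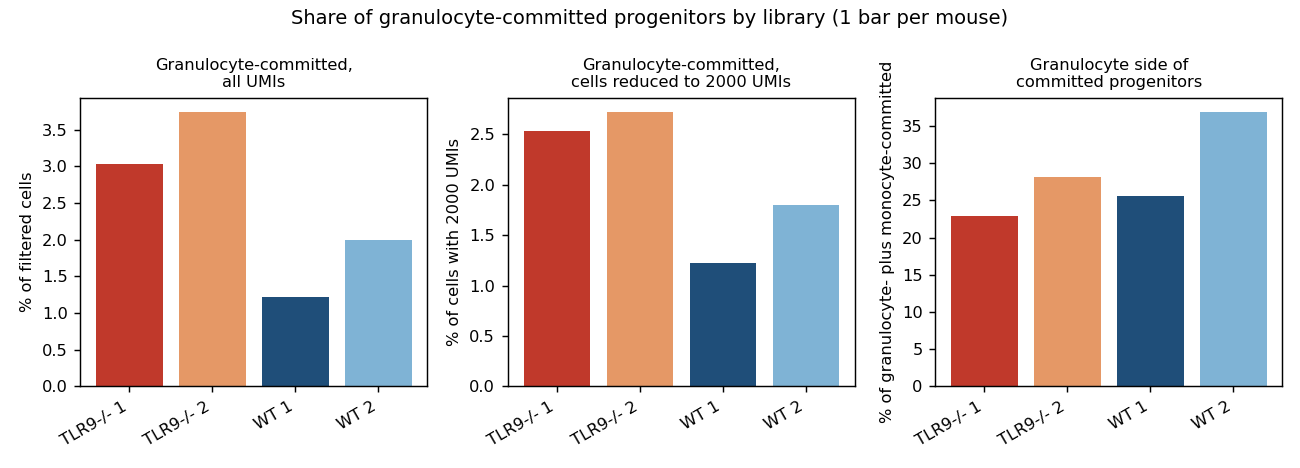
Share of granulocyte-committed progenitors in each library, as percent of all filtered cells (left), of cells reduced to 2000 UMIs (middle) and of granulocyte- plus monocyte-committed progenitors (right); each bar is 1 mouse. The TLR9-/- bars are the higher ones in the left and middle panels (3.03% and 3.75% against 1.22% and 2.00% on the left), and WT library 2 is the highest on the right, at 36.9%.

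The cells did not form a uniform stage. A maturation score was computed for the 950 members with at least 2000 UMIs, after reduction to 2000 UMIs, as the log2 ratio of UMIs on 14 genes of later granulocyte stages (such as S100a8, S100a9, Fcnb and Ltf) to UMIs on 10 genes of early progenitors (such as Cd34, Kit and Hoxa9), each plus 1. The members of all libraries together were then divided by the score into an early, a middle and a late tertile. The score is a continuous range and the tertiles are not cell types, with 109 and 101 cells within 0.5 of the lower and the upper limit. Genes of the score changed along it by construction, and all values along the tertiles are descriptions.

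Both calprotectin genes, which entered the score, were far higher in the late tertile. S100a8 had 178, 246, 219 and 292 CPM in the early tertile and 29338, 17230, 22508 and 22440 CPM in the late tertile. S100a9 went from a mean of 37.3 CPM through 626 to 16758 CPM. Fcnb had 6.74, 12.1, 6.07 and 7.83 CPM in the early tertile and 416, 487, 390 and 721 CPM in the late tertile. Camp, limited by the selection, still had a mean of 1323 CPM in the late tertile. Cybb, the membrane subunit of the phagocyte NADPH oxidase, went from 9.57 to 120 CPM. Cd34, the stem and progenitor cell sialomucin, fell from a mean of 75.1 through 18.2 to 1.98 CPM.

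Genes outside the score moved along it as well. Wfdc21 had means of 128, 626 and 1473 CPM in the 3 tertiles, and Pglyrp1 358, 639 and 1155 CPM. Cyba, the second membrane subunit of the oxidase, had 495, 757 and 1323 CPM. Lrg1, a secreted glycoprotein of neutrophil granules, rose from 9.48 to 95.5 CPM. Elane, a gene of the selection but not of the score, had 17197, 24896 and 30322 CPM. Of 16 chaperones and stress genes of the endoplasmic reticulum, 9 were lower in the late than in the early tertile of all 4 libraries and 1, Xbp1, was higher. No share over all genes is given beside these counts, so that they do not set the list apart from other genes. Calr (calreticulin) had 1063, 876 and 602 CPM and Hspa5 (BiP) 549, 504 and 421 CPM, whereas Manf had 587, 588 and 502 CPM and was not lower in every library. Ass1, Fabp5 and Tmem176b were also highest in the early tertile, at 92.6, 91.4 and 151 CPM against 19.8, 14.8 and 24.1 CPM in the late tertile.

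**Figure D3:**
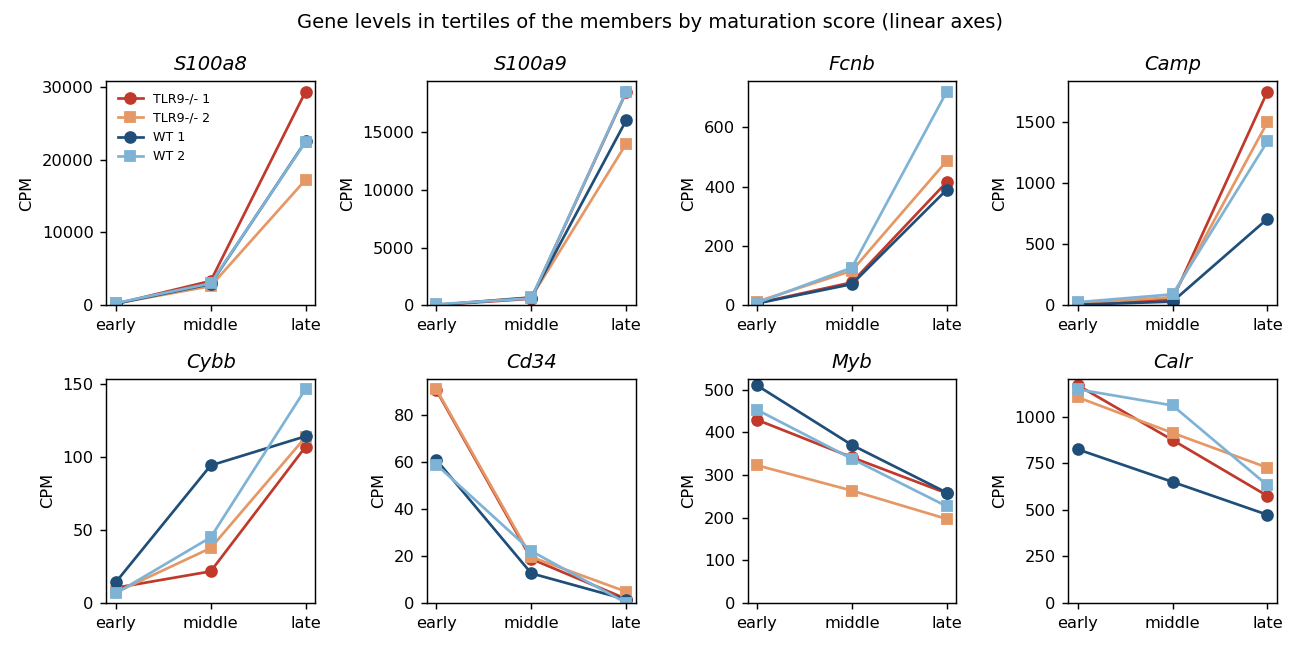
Levels of 8 genes in the early, middle and late tertile of the members by maturation score, in CPM on linear axes, with 1 line per library. S100a8, S100a9, Fcnb, Camp and Cybb are highest in the late tertile of all 4 libraries, Cd34, Myb and Calr in the early tertile; the first 7 of these genes entered the score.

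Transcripts of other granulocyte lineages were also present. Prss34, a protease of basophils, had 9.86, 186, 105 and 2038 CPM in the early tertile, 0, 1071, 8.37 and 656 CPM in the middle and 4.24, 1.19, 2.89 and 399 CPM in the late tertile, so that the early tertile lay above the late one in all 4 libraries, while the middle lay between them in the WT libraries and not in the TLR9-/- libraries. Prg2, the major basic protein of eosinophils, had 54.5, 939, 2.02 and 15.7 CPM in the early, 273, 0.71, 29.3 and 498 CPM in the middle and at most 2.53 CPM in the late tertile. These values came from few cells. At least 10 UMIs on basophil markers were found in 7, 10, 4 and 9 members of the 4 libraries, and at least 10 UMIs on eosinophil markers in 3, 8, 1 and 2 members. A single member of TLR9-/- library 2 had 1937 UMIs on eosinophil markers. The rule thus admitted 30 members with basophil and 14 with eosinophil transcripts, a few percent of the cells, in both genotypes.

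The next comparison was how far along this range the cells of each genotype stood. TLR9-/- members had median maturation scores of 2.25 and 2.00, and WT members 2.77 and 2.81. Both TLR9-/- libraries lay lower, by 0.67 on the log2 scale (2.12 ± 0.174 against 2.79 ± 0.0249, SD, n = 2). The early tertile held 35.3% and 38.1% of the TLR9-/- members and 27.8% and 24.9% of the WT members, and the late tertile 30% and 29.6% against 42.9% and 39.3%. Since the late list of the score holds 3 genes of the selection (Camp, Ngp and Cebpe), these values are descriptions. With those genes left out, the median score was 2.08, 1.58, 2.64 and 2.66, again lower in both TLR9-/- libraries, by 0.82 on the log2 scale (1.83 ± 0.354 against 2.65 ± 0.0143, SD, n = 2; exact permutation p = 0.33, the smallest possible). Neutrophil markers made up 1.39%, 1.12%, 1.78% and 1.80% of the members' UMIs, and the late list of the score 1.49%, 1.25%, 1.91% and 1.92%. Its early list, at 0.0595%, 0.0471%, 0.0534% and 0.0509%, overlapped between the genotypes as summed UMIs. By gene, in the edgeR test described below, 5 of its 8 tested genes lay above 0, with a median log2 fold change of 0.41. Past the adjusted threshold there were 0, and 4 were higher at an unadjusted edgeR p under 0.05, as were 4.35% of all genes tested. Members marked as likely doublets were 12.8%, 10.5%, 19.4% and 14.0%, and with the full lists the score difference was −0.585 without them. How far neutrophil RNA entered the score was not tested.

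The share of members with at least 3 UMIs on 24 G2/M genes, at 2000 UMIs per cell, was 62.5%, 62.2%, 60.3% and 61.3%. Monocyte-committed progenitors at the same depth had 66.0%, 65.1%, 60.8% and 68.7%. The difference between the genotypes was 1.57 percentage points (exact permutation p = 0.33), and it changed sign to −0.219 points with cells reduced to 1000 UMIs. Without any reduction the share was 96.0%, 97.9%, 98.4% and 94.9%, so that its level depends on depth. Within the members the early tertile had the lowest share, with 54.6% against 66.9% in the middle and 64.2% in the late tertile.

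**Figure D4:**
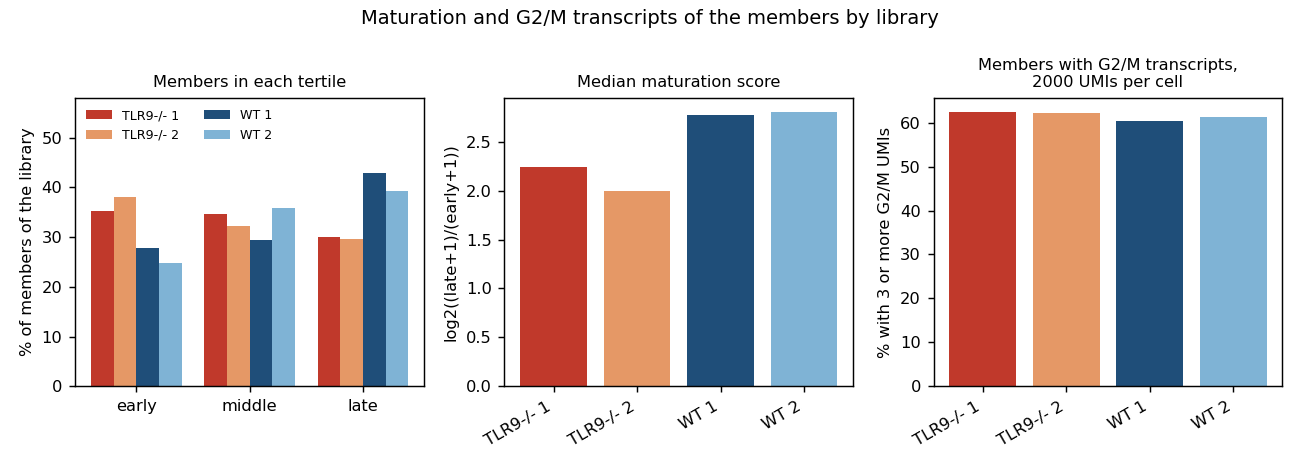
Members in each tertile of the maturation score as percent of the members of a library (left), the median score (middle, log2 ratio of late to early UMIs) and the percent of members with 3 or more G2/M UMIs at 2000 UMIs per cell (right); each bar is 1 library. The TLR9-/- libraries have more members in the early and fewer in the late tertile than the WT libraries, whereas the bars on the right lie between 60.3% and 62.5%.

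The comparison of gene levels between the genotypes used UMIs summed per library over the members and edgeR's quasi-likelihood test with Benjamini-Hochberg adjustment. Of 9730 genes tested, the selection's genes left out, 23 passed an adjusted p of 0.05 (0.236%), with 11 higher (0.113%) and 12 lower (0.123%) in TLR9-/- cells. With the library number as a block, 98 genes passed, 35 higher and 63 lower, among them all 23. The labels do not say that these numbers mark the experiments, and the counts for gene lists below are from the fit without this block. The libraries of the genotypes did not overlap for any of the 23, as for 41.1% of all genes tested. Of the 23 genes, 20 also passed, in the same direction, in the monocyte-committed progenitors of these mice. The exceptions were Rsph9, Naip5 and Cd79a. No share of all genes passing in those cells is given beside this count, so that it is a description. Without TLR9-/- library 2, which had the most UMIs, 11 genes passed and 13 of the 23 did not. BC018473, Gm6594, Gm16867, Gm34084, Hist1h2ac and Trim12a, 6 of the 23, passed under every alternative setting in which they could be tested.

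The genes that were higher included 5 with 0 UMIs in both WT libraries. BC018473 (ENSMUSG00000056032, chromosome 11 from 116752167 to 116759373), annotated as an antisense RNA, had 3383 and 6306 UMIs in TLR9-/- cells and 0 and 0 in WT cells. This was at least 1164-fold higher, when 3 UMIs over both WT libraries are taken as the limit that 0 allows. Whether reads were counted by strand is not given in the sources used here, so that reads of an overlapping gene cannot be told apart. Gm6594, a processed pseudogene whose reads may be shared with its parent gene, had 492 and 1152 against 0 and 0 UMIs, at least 198-fold higher. Fhl2, a LIM-domain adaptor (chromosome 1 from 43123074 to 43196984), had 184 and 337 against 0 and 0 UMIs, at least 62.6-fold higher. Ncmap and Gm35082 were at least 45.8-fold and 24.1-fold higher.

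The other 6 higher genes were expressed in both genotypes. Cap1, which recycles actin monomers, had 74.98 and 92.1 CPM in TLR9-/- and 37.1 and 35.5 CPM in WT cells, a log2 fold change of 1.18 (standard error 0.17, edgeR adjusted p = 0.043). Wdfy1, an endosomal adaptor of Toll-like receptor signalling (chromosome 1 from 79702262 to 79776143), had 42.5 and 49.3 against 14.4 and 8.07 CPM, a log2 fold change of 2.09 (standard error 0.26). Mid1, a ubiquitin ligase on microtubules, had 57.2 and 64.9 against 3.59 and 10.0 CPM. Adat2, a tRNA-editing deaminase, had 51.0 and 58.7 against 15.6 and 16.5 CPM. Ocel1 and 1500011B03Rik had log2 fold changes of 1.24 and 1.94.

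Among the lower genes were Trim12a and Trim5, which lie close together on chromosome 7 in a cluster of similar Trim genes, so that the split of reads between copies is uncertain. Trim12a had 0 and 1 against 24 and 42 UMIs, a ratio of 183 whose counting interval runs from 31.7 to 7341. Trim5, which like its relatives acts in antiviral defence, had 0 and 0 against 8 and 15 UMIs, at least 21.3-fold lower. Gm16867 (chromosome 14) had 0 and 0 against 32 and 41 UMIs, at least 67.5-fold lower. Gm34084, a long intergenic RNA on chromosome 13, had 0.207 and 0.357 against 39.5 and 41.0 CPM. Hist1h2ac, a replication-type histone H2A gene, had 4.56 and 3.10 against 27.0 and 28.1 CPM, a log2 fold change of −2.92 (standard error 0.27, edgeR adjusted p = 0.0054). Naip5, the sensor of flagellin in the NLRC4 inflammasome, had 1.66 and 1.07 against 8.99 and 9.69 CPM. Hjurp, the chaperone that loads the centromeric histone, had 23.0 and 24.7 against 49.7 and 57.5 CPM. Lrmda, Gm42047 and Pbx4 were lower by 2.77, 1.91 and 3.58 on the log2 scale, and Rsph9 had 1 and 2 against 10 and 15 UMIs.

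**Figure D5:**
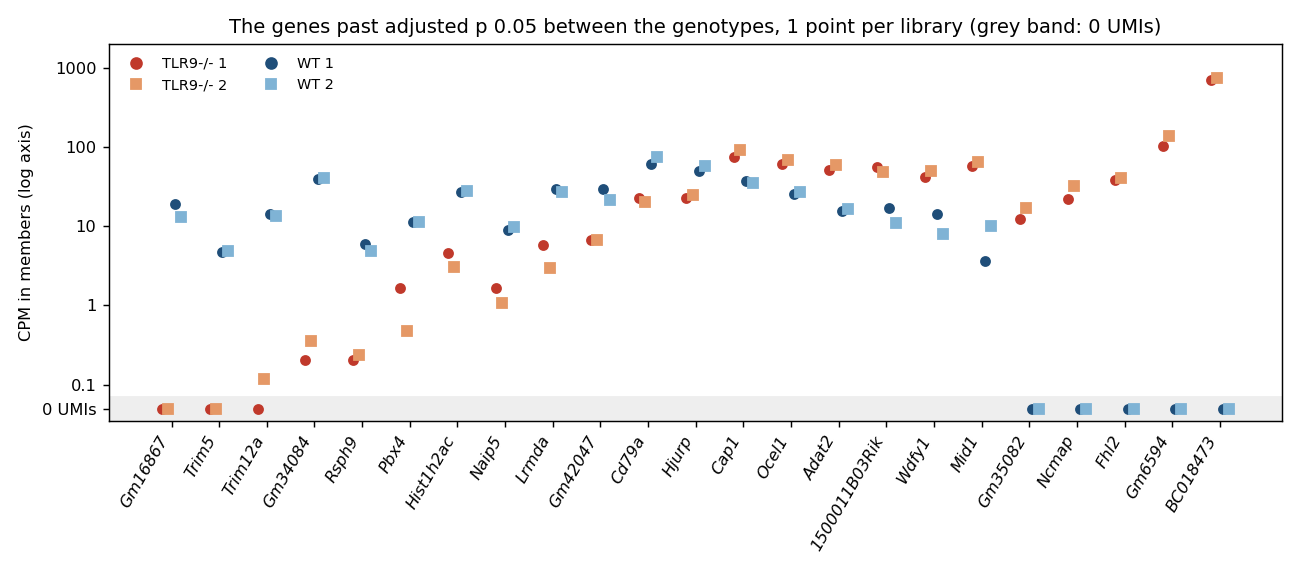
Levels of the 23 genes past an adjusted p of 0.05 between the genotypes, in CPM on a log axis, with 1 point per library and a grey band for 0 UMIs. The genes are ordered by log2 fold change, from Gm16867 (0 UMIs in both TLR9-/- libraries) on the left to BC018473 (0 UMIs in both WT libraries) on the right, and the genotypes do not overlap for any of them.

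Lists of genes were then read by role. Over all genes tested the median log2 fold change was −0.02 and 47.5% lay above 0. The primary granule list had 13 tested members beyond the selection's genes, of which 0 passed the test in either direction, with a median of 0.00. At an unadjusted edgeR p under 0.05, 2 were lower, as were 5.51% of all genes tested, and log2 fold changes ran from −0.68 to 0.19. Abundant members of the list were close between the genotypes, such as Nkg7 at 1354 and 1576 against 1354 and 1517 CPM and Ms4a3 at a log2 fold change of 0.13 (standard error 0.14). Of the selected enzymes, Elane, at 22394 and 25692 against 23285 and 25079 CPM, overlapped between the genotypes. Mpo and Ctsg overlapped likewise, and Prtn3 had 17793 and 19408 against 15764 and 16540 CPM.

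Secondary and tertiary granule genes had a median log2 fold change of −0.69 over 13 tested members (−0.30 in monocyte-committed progenitors), 12 of them below 0. With 0 past the adjusted threshold, 6 were lower at an unadjusted edgeR p under 0.05, as were 5.51% of all genes tested (9.86% in either direction). Fcnb had 133 and 190 against 184 and 325 CPM (log2 fold change −0.69, standard error 0.28, adjusted p = 0.48), and the ranges overlapped. Lcn2, a siderophore-binding protein, had 73.3 and 59.9 against 123 and 80.4 CPM, and Padi4, which citrullinates histones in neutrophils, had 3.94 and 4.05 against 8.99 and 10.0 CPM. S100a8 had 8464 and 6136 against 10254 and 9778 CPM, and S100a9 had 4761 and 4440 against 6900 and 7342 CPM (log2 fold change −0.65, standard error 0.14, adjusted p = 0.16). The 7 tested markers of neutrophils were all below 0, with a median of −0.62. Neutrophil markers, with S100a8 the most abundant, made up 1.39% and 1.12% of the UMIs of the TLR9-/- and 1.78% and 1.80% of the WT cells, and all 10 had UMIs in every library. How far cells with neutrophil RNA entered this difference was not tested.

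Genes of stem and early progenitor cells were split, with 7 of 12 tested above 0, 5 below 0 and 0 past the adjusted threshold. Cd34 had 43.1 and 41.0 against 22.2 and 22.6 CPM (log2 fold change 0.88, standard error 0.18, adjusted p = 0.14), and Ifitm1 had 78.3 and 67.8 against 40.7 and 43.6 CPM. Cd27 had 20.7 and 20.8 against 13.8 and 11.3 CPM, whereas Kit, the stem cell factor receptor, had 62.6 and 56.9 against 61.7 and 63.3 CPM. The list had a median of 0.29 (0.07 in monocyte-committed progenitors). Of its genes, 5 were higher at an unadjusted edgeR p under 0.05, as were 4.35% of all genes. Endoplasmic reticulum chaperones had a median of 0.28 (0.29 in monocyte-committed progenitors), with 14 of 16 tested members above 0 and 0 past the threshold. Manf had 736 and 621 against 394 and 473 CPM (log2 fold change 0.62, standard error 0.18, adjusted p = 0.36). Cybb had 38.5 and 49.3 against 79.7 and 74.6 CPM (log2 fold change −0.83, standard error 0.17, adjusted p = 0.14), and the other 5 subunits and partners of the oxidase had log2 fold changes between −0.32 and 0.11.

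Transcription factors of the granulocyte path, beyond the selection's genes, had a median of −0.18 over 9 tested members, with 0 past the threshold. Spi1 had 282 and 315 against 261 and 226 CPM (log2 fold change 0.27, standard error 0.16, adjusted p = 0.60). Cebpa, needed to enter the granulocyte-monocyte path, had 60.9 and 60.9 against 66.5 and 76.5 CPM. The growth factor receptors had a median of −0.02 over 8 tested members and the monocyte fate genes −0.10 over 10. Cxcr4, which holds progenitors in the marrow, had 72.3 and 53.1 against 90.5 and 106 CPM (adjusted p = 0.38), and 8 of 9 tested homing and adhesion genes lay below 0.

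Of the Toll-like receptor pathway, the surface receptors had low levels in these cells. Tlr2 and Tlr4, receptors of bacterial lipoproteins and lipopolysaccharide, had 2.91 to 5.12 and 5.002 to 6.78 CPM. Unc93b1, the chaperone that brings the endosomal receptors to their compartment, had 89.9 and 101 against 92.9 and 92.7 CPM, and the adaptor Myd88 had 17.8 and 23.0 against 18.0 and 16.5 CPM. The 12 tested genes of the list, which does not hold Wdfy1, had a median of −0.06, with 0 past the adjusted threshold and 0 at an unadjusted edgeR p under 0.05. Interferon-stimulated genes had a median of −0.36 over 14 tested members, and the spread lay between the WT libraries. Isg15 had 23.6, 15.01, 85.1 and 11.0 CPM and Irf7 had 2.49, 4.64, 16.2 and 1.61 CPM, with WT library 1 the highest for both. G2/M and DNA replication genes had medians of −0.09 and 0.00 over 24 and 20 tested members, with 0 past the threshold. AP-1 and early response genes had a median of 0.17 over 9.

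Markers of other cell types differed between the libraries and are given because they enter the summed UMIs. Cd79a, a chain of the B cell receptor complex, was the 1 listed gene that passed the test, with 23.0 and 20.01 against 60.5 and 74.6 CPM (log2 fold change −1.69, standard error 0.18, edgeR adjusted p = 0.012). All 10 B cell markers were detected in every library and lay below 0, with a median of −1.68 (−0.74 in monocyte-committed progenitors). They made up 0.0200%, 0.0172%, 0.0754% and 0.0489% of the members' UMIs, with Igkc the most abundant in WT library 1, and 5.81%, 5.99%, 14.7% and 16.3% of the members had at least 10 UMIs on them. Erythroid markers, led by Hbb-bs, made up 0.239%, 0.0602%, 0.693% and 0.114%, and 0 of 9 passed the test. All 9 lay below 0, with a median of −1.38 (−1.29 in monocyte-committed progenitors). At an unadjusted edgeR p under 0.05, 5 were lower, as were 5.51% of all genes tested. Macrophage and basophil markers had medians of −1.09 over 2 and −1.04 over 7 tested genes, those of monocytes, megakaryocytes and plasmacytoid dendritic cells 0.17, 0.32 and 0.40 over 6, 3 and 4, and those of T and NK cells and of eosinophils 0.49 and 1.15 over 4 and 3, with 0 past the threshold. Their part in the results was not tested, other than as follows. Members marked as likely doublets were 12.8%, 10.5%, 19.4% and 14.0%. Leaving out the 86 members with at least 0.5% of their UMIs on markers of other cell types gave 43 genes past the threshold, among them all 23, and Cd79a kept a log2 fold change of −1.74 (edgeR adjusted p = 0.0038). The median of the secondary and tertiary granule list was then −0.72. The medians of basophil and eosinophil markers turned to 0.34 and −0.61, and those of macrophage markers and interferon-stimulated genes moved to −0.48 and −0.16.

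Whether the genotype difference of a gene was another in granulocyte- than in monocyte-committed progenitors was tested as an interaction, with the library as a block. Of 10450 genes tested, 22 passed (0.211%), 7 with a more positive (0.0670%) and 15 with a more negative (0.144%) difference in the granulocyte-committed cells. Of these, 11 were immunoglobulin or Jchain transcripts. Arsb, the lysosomal arylsulfatase B, had a log2 fold change of −0.24 in granulocyte-committed and 1.06 in monocyte-committed cells, and S100a9 one of −0.65 against 0.00. Without likely doublets the S100a9 interaction was 0.83, with the opposite sign, and S100a9 in TLR9-/- monocyte-committed cells was then at 170 and 220 CPM in place of 657 and 620 CPM.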

How the data were processed

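Per the labels and file headers, the authors sequenced 10x Genomics libraries of 4 mice and made the gene tables with Cell Ranger 3.0.1 (STAR, build mm10). The deposited values are raw UMI counts per gene and cell. Authors' cell types were not used here. Cells with under 200 or over 10000 genes, or over 10% mitochondrial UMIs, were left out; the methods print this limit as 0.10%, read here as a fraction. The selection rule, the members and the gene lists were chosen with earlier results of these data known. Groups came from the sample titles. UMIs were summed per library over the members and tested with edgeR 4.0.16 in R 4.3.3 (TMM, filterByExpr, quasi-likelihood F test, adjusted p under 0.05), since cells of 1 mouse are not replicates. CPM are scaled to the class total of a library without TMM. Standard errors are the log2 fold change divided by the root of F. Whether the p values reflect more than the spread of these mice cannot be told with 2 per genotype. On simulated data for the genotype comparison (9740 genes), 46% of 2-fold and 100% of 4-fold changes were recovered. The changed genes were drawn only from the better covered genes, and all genes had a common dispersion of 0.0277. Recovery at low UMI counts was therefore not measured. Intervals and limits for 0 UMIs (3 counts over both libraries of a genotype) cover counting error only, at 95% (exact binomial). Doublets were marked as the highest Scrublet scores (scanpy 1.11.5) at 0.8% per 1000 cells and kept. Genes were named if they were in the rule or the lists, among the 15 most abundant (genes named Rpl, Rps or mt- left out), among up to 15 changed genes in each direction by size with 1 sign in both same-numbered pairs, up to 5 in each direction in the interaction, or among the 10 highest and lowest ratios between the classes (at least 50 CPM, rule genes left out). Arsb, genes along the tertiles and other exceptions were chosen after their values were seen. Positions are from GENCODE vM21 (GRCm38).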

Additional observations from a re-analysis of the deposited data

Results flagged for a closer look

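The genotype difference differed between granulocyte- and monocyte-committed progenitors for 22 genes by edgeR's interaction test. Among the named ones, 3 of the largest had their UMIs in very few cells. Igha had 15, 8, 867 and 2 UMIs in the members of the 4 libraries, 710 of them in a single cell of WT library 1, and an interaction of −10.89 on the log2 scale. Jchain (−10.63) had 597 UMIs in WT library 1 with 381 in 1 cell, and Igkv10-94 (−10.48) had 2046 with 2042 in 1 cell. Igkv6-23 (−10.84) and Igkv6-15 (−9.52) were likewise more negative, and Igkv3-7 (12.22) and Igkv3-2 (9.50) more positive. Igkv3-7 was seen in 1 member of TLR9-/- library 1, with 15 UMIs. Igkc had an interaction of −3.89 and Ighm one of −1.03. Ighm did not pass by DESeq2 (−1.03) or at 2000 UMIs per member (−0.72), and it stood at −0.73 without TLR9-/- library 1 and −0.78 without WT library 2. Without the members that carried markers of other cell types, Igkc stood at −0.60 (edgeR adjusted p = 0.95), and Igha, Jchain, Igkv10-94, Igkv6-23 and Igkv3-7 could not be tested. In that setting Ighm (−0.96), Igkv6-15 (−10.38) and Igkv3-2 (13.21) still passed. The values of the last 2 rest on few UMIs and are no measure of size: Igkv6-15 had 5, 2, 0 and 14 UMIs in the members, with 13 in 1 cell, and Igkv3-2 had 8, 72, 1 and 0, both too few for the genotype test within the members. Without WT library 2, Igkv6-15 stood at −2.50 and did not pass.

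Ccl5, a chemokine of T and NK cells, had an interaction of 3.37 and 167, 140, 4 and 10 UMIs in the members, with up to 69 in 1 cell; without the members carrying other markers it stood at 0.21. Naaa, an acid amidase of lysosomes, had an interaction of 1.51 and Stard3nl, an endosomal membrane protein, one of 0.98, and both passed with those members left out. Neither passed by DESeq2, at 2000 UMIs per member, with a minimum of 0.5% primary granule UMIs or without WT library 2, and Naaa also did not pass with doublets left out. S100a9 had an interaction of −0.65, since it was lower in TLR9-/- cells of the granulocyte side and level on the monocyte side. With likely doublets left out of both classes, the S100a9 value turned to 0.83: the monocyte-committed cells then had 170 and 220 CPM in TLR9-/- and 657 and 512 CPM in WT libraries.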

How the results depend on the processing

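None of the alternatives run changed the direction of the share, the granulocyte side, the maturation score or the 23 genes where they could be tested. For the log2 ratio of the share (1.07), no limit on Camp plus Ngp gave 0.68, and leaving out 1 library gave 0.76 to 1.47. For the granulocyte side (log2 ratio −0.29), leaving out 1 library gave −0.53 to −0.00049, the latter without WT library 2. For the maturation difference (−0.67), 4000 UMIs per cell gave −1.13 and lists without the selection's genes −0.82. For the G2/M share (1.57 points), 1000 UMIs gave −0.22, doublets left out 4.37, no reduction 0.27, a minimum of 2 UMIs 0.60, a minimum of 5 UMIs 2.89 and members without other markers 2.83.

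The 23 genes past the threshold became 266 without a filter on low counts, 44 by DESeq2, 3 in members reduced to 2000 UMIs and 43 without members carrying other markers (chosen after seeing the data). They became 11 to 74 with 1 library left out; without WT library 2 there were 74 and without TLR9-/- library 1 there were 52. The 22 interaction genes became 70, 4 and 13 in the first 3 of these settings and 11 to 60 with 1 library left out; without TLR9-/- library 2 there were 55 and without WT library 1 there were 60. With 1 library left out, 2 (TLR9-/- 1), 13 (TLR9-/- 2), 7 (WT 1) and 4 (WT 2) of the 23 did not pass. The Ccl5 interaction ran from −3.17 (without WT library 1) to 5.18, and that of S100a9 turned to 0.83 without doublets. Leaving out 1 library leaves a single library in its genotype, so that the spread in those fits comes from the other genotype alone. The reduced setting holds fewer UMIs; other causes were not tested. The study's methods place 1 mouse of each genotype in each of 2 experiments, but the labels do not say that library numbers mark them. Deviations of same-numbered libraries from their genotype means correlated at 0.265 over 9740 genes, with only 2 pairs, and a replicate block gave 98 genes. The block changed the side of the threshold for none of the 23.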
